A study of Mus musculus with 6 samples.

Results

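Peaks of DNA pulled down together with Tug1, a long noncoding RNA, were examined at 9 mouse genes, of which 8 code for Polycomb proteins (Jarid2, Ezh1, Ezh2, Suz12, Eed, Aebp2, Mtf2 and Cbx7) and 1 for the DNA methyltransferase Dnmt3a. The genes were chosen by name, as part of the Polycomb and DNA methylation machinery, which Tug1 has been described to bind, and a peak was assigned to a gene when any base of it lay inside the gene or within 5 kb of either end. By this rule 52 of the 130269 deposited peaks belonged to the 9 genes, and peaks that shared at least 1 bp across libraries were merged into 38 regions of 113114 in all. The even pulldowns (2 libraries) and the odd pulldowns (2 libraries) took alternate members of a set of 48 biotinylated probes tiled along Tug1, so no probe is common to both, and input DNA (2 libraries) entered only through the authors' peak calling. All libraries came from an immortalized mouse podocyte culture, the epithelial cell of the kidney filter, at passages 10 to 12. The line is immortalized by an SV40 T antigen that works only at low temperature, and it was expanded at 33 degrees and kept at 37 degrees for 10 days to differentiate. The cells received no other treatment, and nuclei were crosslinked with glutaraldehyde. The labels leave unsaid whether the replicates of a probe set are different cultures, and differences between them may therefore be technical. Peak lists hold no expression values, so podocyte markers could not be examined.

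Polycomb proteins keep genes silent through 2 complexes. Polycomb repressive complex 2 (PRC2) methylates histone H3, with Ezh1 or Ezh2 as the catalytic subunit, Eed and Suz12 as the partners needed for activity, and Jarid2, Aebp2 or the Polycomb-like protein Mtf2 as accessory subunits that help to bring the complex to chromatin. Cbx7 belongs to Polycomb repressive complex 1 (PRC1) and reads the methylated histone, while Dnmt3a places new methyl groups on cytosines followed by guanine (CpG). The pulldown recovers DNA that lay near Tug1 RNA, so a peak at one of these genes concerns the gene's own DNA and not the binding of Tug1 to the protein it codes for.

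The even lists held 40725 and 26529 peaks and the odd lists 28047 and 34968. Each peak carries the authors' score, whose scale is not stated. In the replicate 1 lists 80.5% (even) and 99.9% (odd) of peaks scored 3100 or more, against 0.0716% (even) and 0.112% (odd) in the replicate 2 lists, so scores rank peaks mainly in the replicate 2 lists. Percentiles are given within a list, tied peaks sharing their mean rank, and a score of 3100 stands at the 58.8 percentile in even replicate 1 and at the midpoint in odd replicate 1. Read depth is unknown from peak lists, and a deeper library can yield more peaks.

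The position of peaks relative to promoters was read from windows of 250 bp before to 50 bp after a transcription start. RefSeq (GRCm38.p6, the assembly also called mm10) lists 15 such 300 bp windows for the 9 genes, some of which overlap each other. Of these, 0 overlapped a peak of any library, against 4.75% of 21262 windows of protein-coding genes, and with so few windows a count of 0 is near that share and sets the 9 genes apart from no others. The 15 windows had a median of 23 CpG (2 to 47), against 13 over all windows (quartiles 4 and 24), of which 95.4% held at least 1. Those with fewer than 13 were windows of Aebp2 (4 and 4) and Mtf2 (2). CpG was searched as the letters CG, which read the same on both strands. The 3 windows below are shown for the gene whose promoter came nearest to a peak and for the 2 genes with a region in all 4 libraries, each 5′ to 3′ on the strand of the gene with CG in capitals. The Eed window (chr7:89980927-89981226, minus strand) held 17 CG and lay 238 bp from a peak of odd replicate 1. The Jarid2 window (chr13:44731021-44731320, plus strand) held 23 CG, and its nearest peak, also of odd replicate 1, was 2562 bp away. The Dnmt3a window (chr12:3806910-3807209, plus strand) held 47 CG, more than 98.2% of all windows, and its nearest peak, of even replicate 1, was 4086 bp away. Of the other windows of Dnmt3a, the one at 3806730 to 3807029 overlaps this one and held 46 CG, and the one at 3891494 to 3891793 held 18 CG, more than 59.7% of all windows, and lay 1921 bp from a peak of even replicate 1. These windows cover only the listed starts, and a gene may have others.
Eed: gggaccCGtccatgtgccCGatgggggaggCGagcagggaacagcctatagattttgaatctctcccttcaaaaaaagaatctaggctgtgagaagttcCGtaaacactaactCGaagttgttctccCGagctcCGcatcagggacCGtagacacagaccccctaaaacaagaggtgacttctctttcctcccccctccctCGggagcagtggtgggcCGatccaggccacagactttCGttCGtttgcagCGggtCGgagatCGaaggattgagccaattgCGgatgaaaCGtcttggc
Jarid2: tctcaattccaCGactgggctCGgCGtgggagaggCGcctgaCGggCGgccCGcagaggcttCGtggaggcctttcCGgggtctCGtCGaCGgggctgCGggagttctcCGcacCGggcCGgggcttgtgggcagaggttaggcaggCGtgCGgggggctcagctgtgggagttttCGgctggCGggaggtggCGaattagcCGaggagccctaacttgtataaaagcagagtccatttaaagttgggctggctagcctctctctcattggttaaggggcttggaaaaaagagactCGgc
Dnmt3a: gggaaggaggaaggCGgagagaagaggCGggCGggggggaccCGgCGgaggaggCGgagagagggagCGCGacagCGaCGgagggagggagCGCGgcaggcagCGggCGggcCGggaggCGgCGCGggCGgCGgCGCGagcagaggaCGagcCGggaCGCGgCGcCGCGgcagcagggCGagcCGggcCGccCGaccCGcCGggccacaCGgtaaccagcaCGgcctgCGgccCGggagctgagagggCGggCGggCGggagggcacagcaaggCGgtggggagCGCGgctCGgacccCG

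A peak of at least 1 library was found at 8 of the 9 genes, all but Ezh2, and 74.9% of the 21883 protein-coding genes had one by the same rule. In even replicates 1 and 2, 7 and 4 of the 9 genes had a peak, against 48.9% and 35.5% of protein-coding genes. In odd replicates 1 and 2 the number was 5 in each, against 40.0% and 42.7%. Regions held by at least 1 even and 1 odd library, called even-odd regions here, lay at 5 of the 9 genes (Jarid2, Ezh1, Aebp2, Cbx7 and Dnmt3a), against 16.0% of protein-coding genes. Regions of all 4 libraries lay at Jarid2 and Dnmt3a, 2 of 9, against 1.60%. The count of 5 was 3 without even replicate 1 (Jarid2, Ezh1 and Dnmt3a; 5.37% of protein-coding genes) and 3 without odd replicate 2 (Jarid2, Aebp2 and Dnmt3a; 10.4%). When only peaks at or above the median score of their list were used, the count of 2 was 0 (1.00% of protein-coding genes). This filter is unequal, since the median of both replicate 1 lists is 3100, which 80.5% (even) and 99.9% (odd) of their peaks reach. The peaks it removed from the 2 regions were all of replicate 2.

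**Figure D1:**
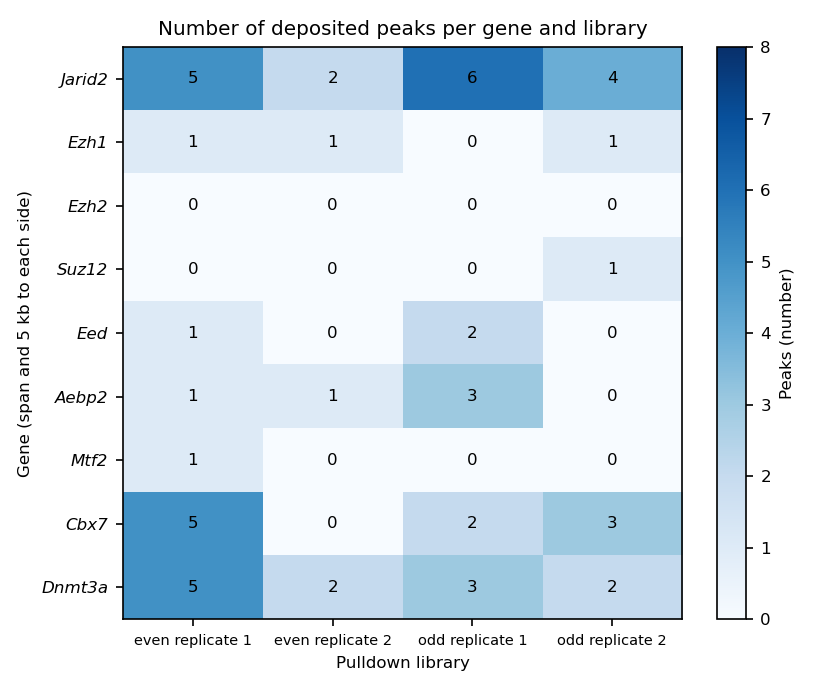
Number of deposited peaks at each gene (rows, gene span with 5 kb to each side) in each pulldown library (columns), with darker blue for more peaks. Jarid2 and Dnmt3a have peaks in all 4 libraries and Ezh2 in none, and Jarid2 has the highest number in 1 library, 6 in odd replicate 1.

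Longer genes hold more regions, and the 9 genes were longer (median 55.3 kb) than protein-coding genes as a whole (median 17.2 kb). Among genes over 100 kb, both members, Jarid2 and Dnmt3a, had an even-odd region and a region of all 4 libraries, against 47.2% and 5.56% of 2428 genes of that length. Among genes of 50 to 100 kb, 2 of 3 members had an even-odd region (Aebp2 and Cbx7, not Ezh2), against 24.3% of 2516 genes. Among genes of 20 to 50 kb it was 1 of 4 (Ezh1, not Suz12, Eed or Mtf2), against 15.0% of 5094 genes. Per 100 kb of window, the members had a median of 7.57 peaks over the 4 libraries (0 to 15.3), against 5.23 for all protein-coding genes. No test was made of these differences, since the 9 genes were chosen by name with results of these data already known.

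**Figure D2:**
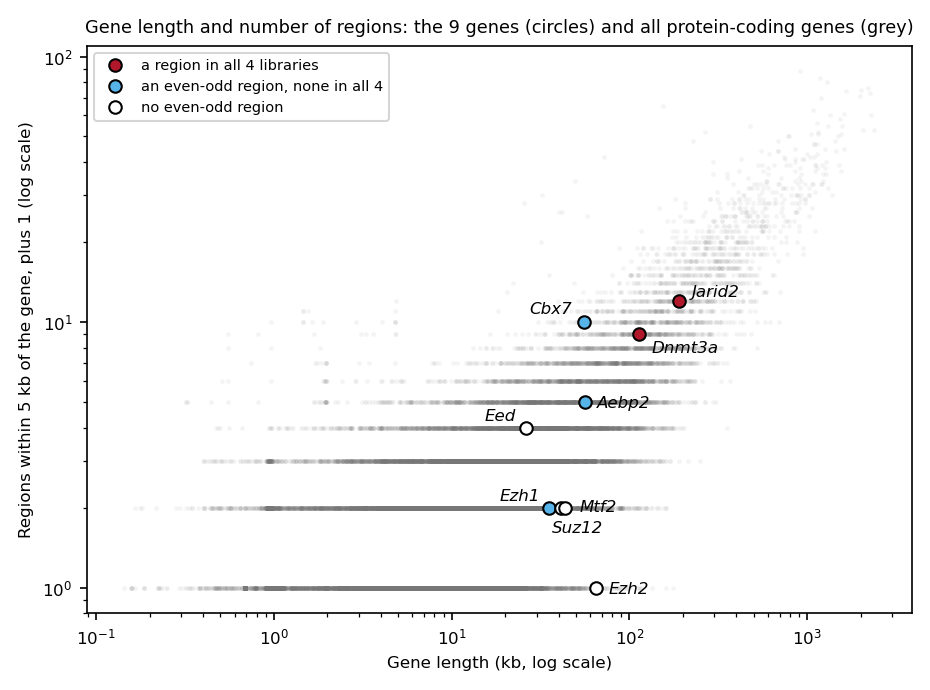
Number of regions within 5 kb of a gene, plus 1, against gene length, both on log scales, for all protein-coding genes (grey points) and the 9 genes (circles, coloured by the libraries of their best-shared region). Jarid2 and Dnmt3a are the longest of the 9, Cbx7 stands high for its length with 9 regions, and Ezh2 has 0 at 65.0 kb.

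Of the 38 regions, 30 (78.9%) came from 1 library, 4 from 2, 2 from 3 and 2 (5.26%) from all 4, and over the whole series 88.6% came from 1 library and 0.661% from all 4. Even-odd regions numbered 6 of the 38 (15.8%), against 7.05% of all regions. All but 1 of the 38 lay inside the gene span, the exception being a peak on the 5′ side of Eed, and 1 also overlapped another gene. From the nearest listed transcription start, 30 of the 38 regions lay more than 10 kb away and 3 lay within 2 kb. The same counts were not made for other genes. With a margin of 5 kb and a median gene length of 55.3 kb, most of each window lies inside the gene, so these counts do not set the 9 genes apart. At Cbx7 and Dnmt3a the gene span reaches well beyond the listed starts on the 5′ side, so regions near that end count as farther away. A Dnmt3a region at 0.963% of the gene's length, for example, counted as 4.16 kb away. Exons and introns are not part of the gene table used, so regions are placed only by distance.

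**Figure D3:**
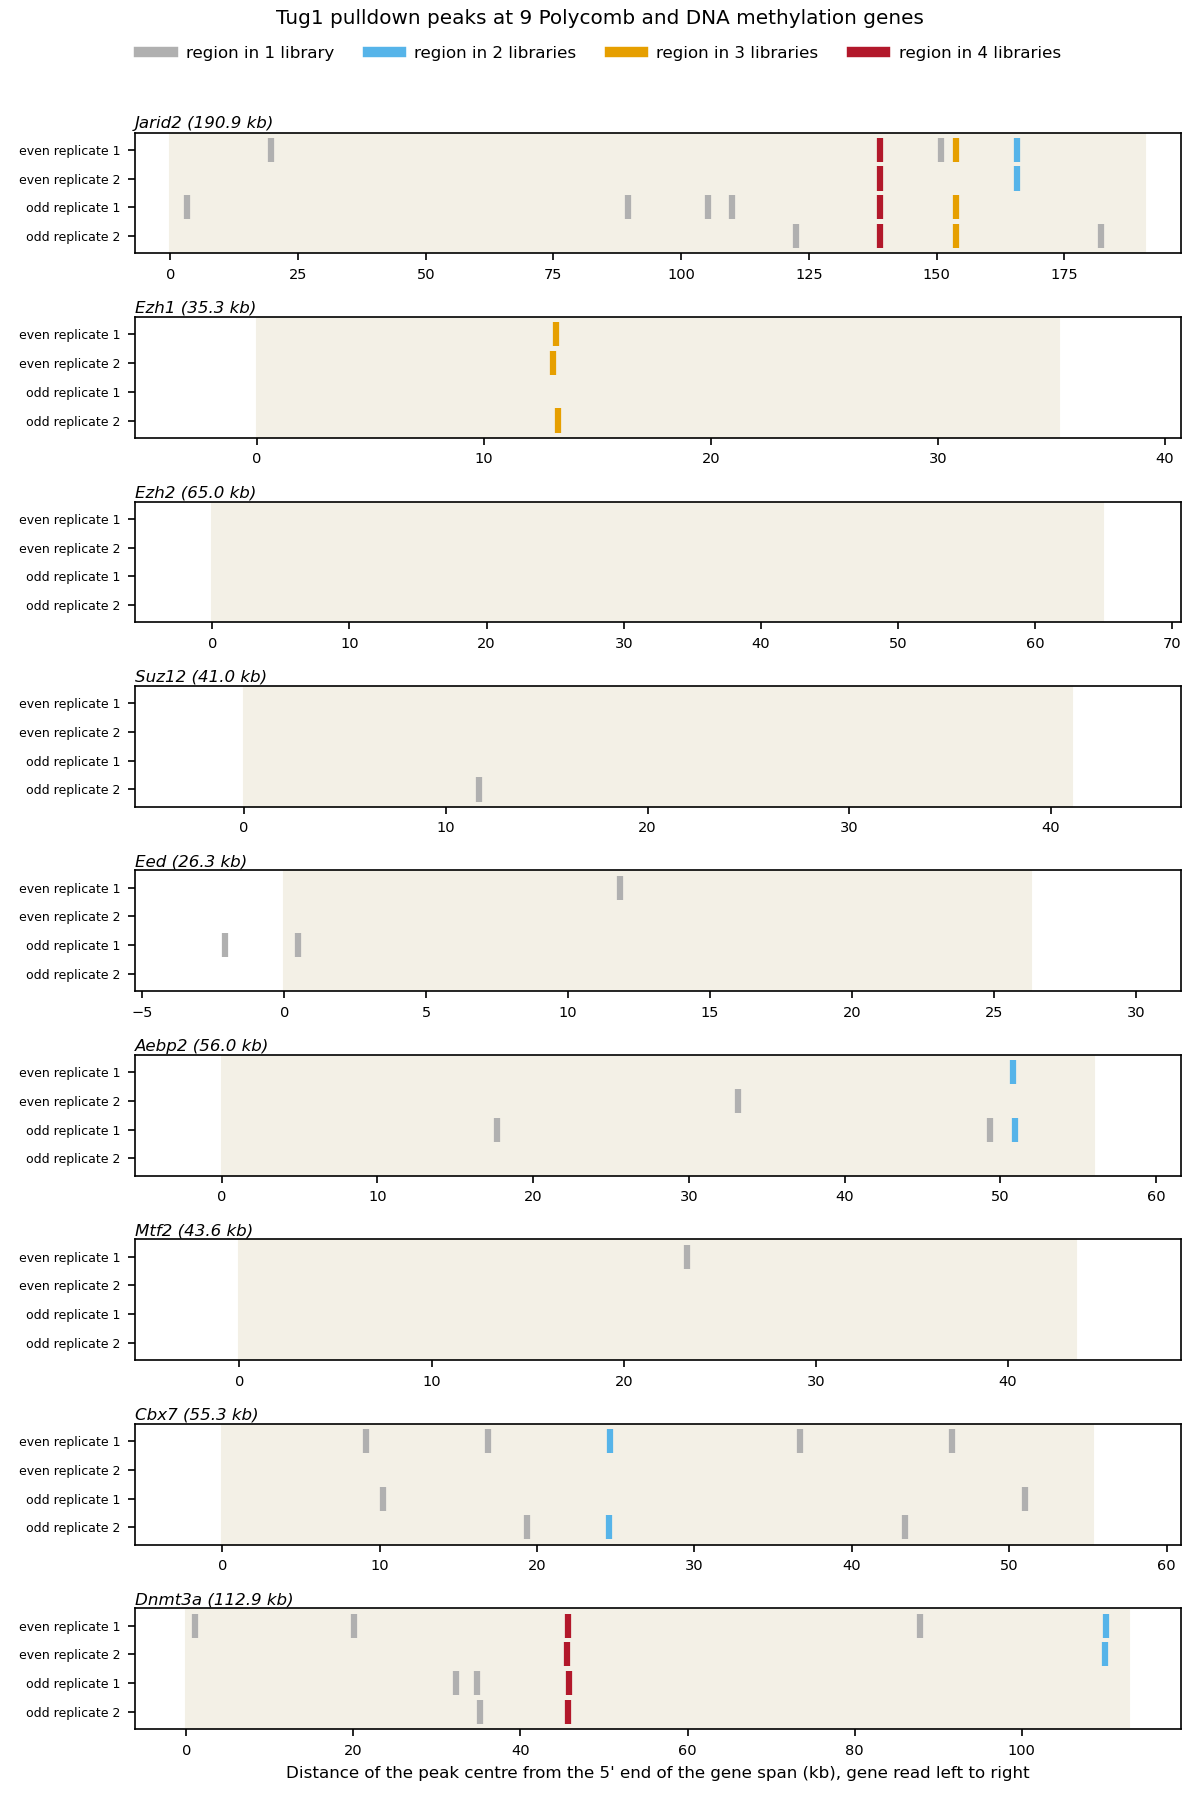
Position of every peak at the 9 genes, as distance in kb from the 5′ end of the gene span (shaded), in 4 rows for the pulldown libraries. Ticks mark peak centres and are not drawn to width, and colour gives the number of libraries in the region: 2 regions are in all 4 libraries, at 72.8% of the length of Jarid2 and 40.5% of that of Dnmt3a.

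Jarid2, an accessory subunit of PRC2 that is needed for normal development, held the most peaks of the 9 genes. The gene (gene ID 16468) spans 190.87 kb of chromosome 13, from 44730774 to 44921643. It held 5 and 2 peaks in the even libraries and 6 and 4 in the odd libraries, which made 11 regions. Both of its even-odd regions, and its only region of both even libraries without an odd library, lay toward the 3′ end of the gene, from 72.8% to 86.9% of its length. The region of all 4 libraries, at 44869443 to 44870135, was 693 bp wide and lay 138 kb downstream of the nearest listed start. Its peaks were 679 and 591 bp wide in the even and 693 and 655 bp in the odd libraries. Their starts fell within 22 bp and their ends within 92 bp of each other, so that 579 bp (83.5% of the region) was covered by every library. That share was above those of 79.4% of the 693 regions in the series with exactly 1 peak of each library, whose median was 61.1% (quartiles 42.4% and 80.5%).

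The score of this Jarid2 region was 3100 and 110 in even replicates 1 and 2 and 3100 and 175 in odd replicates 1 and 2. The replicate 2 values were low, at the 3.61 percentile of the even and the 31.9 percentile of the odd list, and also low among peaks of regions in all 4 libraries, at the 5.94 percentile of 816 such peaks in the even and the 10.5 percentile of 801 in the odd list. The peaks were wide, however, at the 97.6 and 93.2 width percentiles of the even and the 99.3 and 96.7 of the odd lists. Width and score thus ranked the same peaks differently within the lists. Among the 748 regions in all 4 libraries the width of this one, 693 bp, was not unusual (median 540.5 bp, quartiles 411 and 742 bp).

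About 14 kb farther into Jarid2, at 44884361 to 44884856, even replicate 1 and both odd libraries shared a region, while even replicate 2 had no peak there. Its score was 3100 in even replicate 1, and 3100 and 549 in odd replicates 1 and 2, the last at the 93.7 percentile. A further region at 44896346 to 44896828 was found in both even libraries and neither odd library, with scores of 3100 and 407 (the 78.0 percentile in even replicate 2), and its peak starts differed by 11 bp. The other 8 regions of Jarid2 came from 1 library each, 2 from even replicate 1, 4 from odd replicate 1 and 2 from odd replicate 2. The nearest peak of another library was at least 2545 bp from each of them.

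Dnmt3a, the methyltransferase that sets new DNA methylation patterns, was the other gene with a region in all 4 libraries. The gene (gene ID 13435) spans 112.885 kb of chromosome 12, from 3801559 to 3914443, and held 5 and 2 peaks in the even libraries and 3 and 2 in the odd libraries, in 8 regions. The region of all 4 libraries, at 3846847 to 3847693, was 847 bp wide and lay 39.7 kb downstream of the nearest listed start. Its peaks were 755 and 339 bp wide in the even and 738 and 674 bp in the odd libraries, and 339 bp (40.0% of the region), the whole peak of even replicate 2, was covered by every library. That share was above those of 21.6% of the 693 comparable regions, so the 4 peaks coincided less closely than at Jarid2. The score was 3100 and 234 in the even libraries and 3100 and 383 in the odd libraries. The replicate 2 values stood at the 41.3 percentile of the even and the 82.7 percentile of the odd list, both higher than at Jarid2.

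Near the 3′ end of Dnmt3a, at 3911430 to 3911828, the even libraries shared a region that neither odd library had, with scores of 2875 and 206 (the 29.7 percentile in even replicate 2). The odd libraries had separate peaks side by side at 3836178 to 3836445 (replicate 1, score 3100) and 3836546 to 3836950 (replicate 2, score 544, the 93.5 percentile), 101 bp from each other and more than 9 kb from any even peak. These did not overlap and so counted as 2 regions of 1 library. The remaining regions came from 1 library each, 1 of them, of even replicate 1, at 3889291 to 3889573, where the lncRNA gene Gm31623 lies within Dnmt3a. The nearest region to the 5′ end of the gene span was also of even replicate 1 alone, at 3802469 to 3802824.

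**Figure D4:**
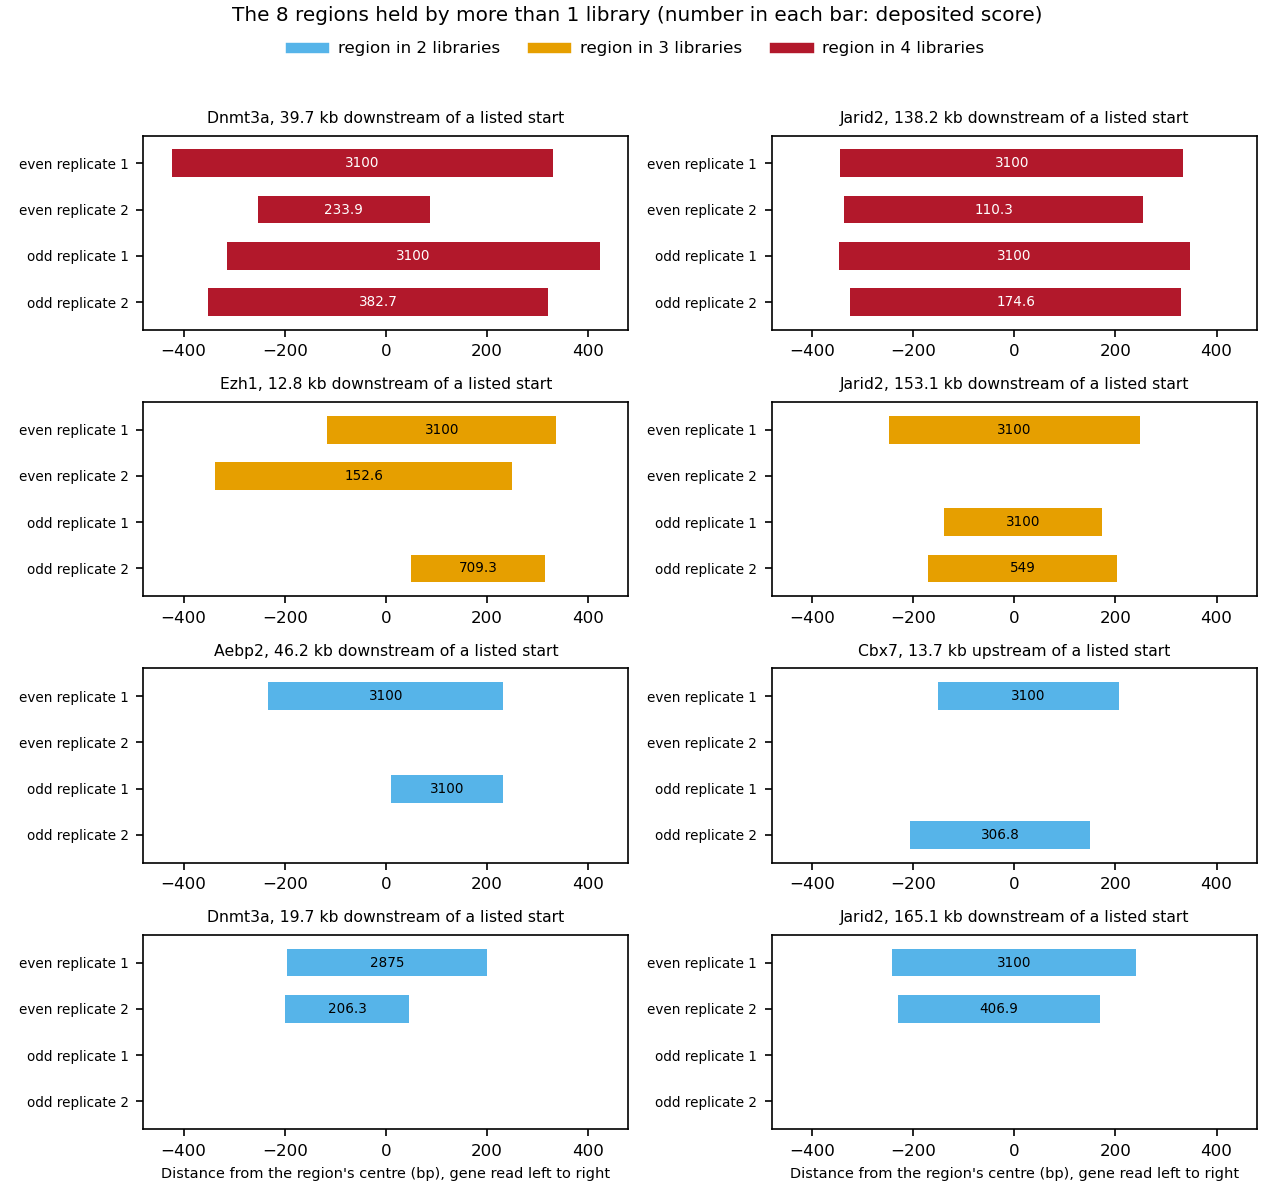
The 8 regions at these genes that more than 1 library held, each panel showing the extent of each library's peak in bp from the region's centre, with the deposited score in the bar. Peak edges nearly coincide at Jarid2 (top right), where 83.5% of the region is covered by all 4 libraries, and less so at Dnmt3a (top left), where 40.0% is.

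The genes of the PRC2 core differed from each other. Ezh1, the alternative catalytic subunit and the one more typical of cells that no longer divide, spans 35.349 kb of chromosome 11 (gene ID 14055, 101191115 to 101226463) and held 1 region only. That region, at 101213030 to 101213704 and 12.8 kb downstream of the listed start, had 1 peak of each even library and 1 of odd replicate 2. The nearest peak of odd replicate 1 was 38749 bp from the gene. Its score was 3100 and 153 in the even libraries and 709 in odd replicate 2, at the 12.3 percentile of even replicate 2 and the 97.0 percentile of odd replicate 2, so the replicate 2 libraries ranked the same place far apart. The peaks overlapped in 200 bp (29.6% of the region).

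Ezh2, the main catalytic subunit in dividing cells, held no peak in any library across its 64.997 kb (gene ID 14056, chromosome 6, 47530274 to 47595270) or within 5 kb. Of protein-coding genes of 50 to 100 kb, 3.18% were likewise without a peak. The nearest peaks lay 32033 and 52260 bp from Ezh2 in the even libraries and 7420 and 32226 bp in the odd libraries. The peaks at 32033 and 32226 bp belonged to an even-odd region at 47627303 to 47627778, on the 5′ side, which even replicate 1 and both odd libraries shared.

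Suz12, which holds the PRC2 core together, had 1 peak, of odd replicate 2, at chromosome 11, 80004608 to 80004874, with a score of 386 (the 82.9 percentile), in a gene of 41.018 kb (gene ID 52615, 79993106 to 80034123). Eed, which binds the methylated histone and stimulates the enzyme, had 3 peaks in regions of 1 library each (gene ID 13626, chromosome 7, 89954654 to 89980976). The even one, of replicate 1 at 89968928 to 89969368, scored 2332, at the 7.05 percentile of its list. The others were of odd replicate 1, at 89980283 to 89980689, which is 287 bp inside the listed start, and at 89982955 to 89983158, which is 1979 bp before it. No peak of even replicate 2 or odd replicate 2 lay within 36 kb of Eed.

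The accessory subunits Aebp2 and Mtf2 had fewer shared peaks than Jarid2. Aebp2, a zinc finger protein that works in the same form of PRC2 as Jarid2, held 1 and 1 peaks in the even libraries and 3 and 0 in the odd libraries (gene ID 11569, chromosome 6, 140622454 to 140678472). Its even-odd region, at 140673057 to 140673521 near the 3′ end, joined even replicate 1 and odd replicate 1, whose peaks overlapped in 222 bp (47.7% of the region). This region was lost when a reciprocal overlap of 50% was required. Beyond the window, 13978 bp past the 3′ end, a region of all 4 libraries lay at 140692450 to 140693036 inside the lncRNA gene Gm30215, with scores of 2838 and 342 in the even libraries and 3100 and 531 in the odd libraries. Mtf2, the Polycomb-like subunit that binds CpG-rich DNA, had 1 peak, of even replicate 1, at chromosome 5, 108088747 to 108089170 (gene ID 17765, 108065660 to 108109219). An even-odd region of even replicate 1 and both odd libraries lay 19377 bp from the gene on its 5′ side, outside the window.

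Cbx7, the PRC1 subunit that reads the methylated histone, had the most peaks for its length, 15.3 per 100 kb of window over the 4 libraries, above 91.0% of protein-coding genes. The gene (gene ID 52609) spans 55.34 kb of chromosome 15, from 79915804 to 79971143, and held 5 and 0 peaks in the even libraries and 2 and 3 in the odd libraries. Of its 9 regions, 8 came from 1 library. The even-odd region at 79946310 to 79946722 joined even replicate 1 (score 3100) and odd replicate 2 (score 307, the 71.2 percentile). It lay inside the gene span but 13.7 kb upstream of the listed start at 79932646. The other peaks of odd replicate 2 ranked low, with scores of 143 and 64.0 at the 18.6 and 0.802 percentiles. Chromosome 15 as a whole held 1.56 times the peaks per Mb of the median autosome (1.40 to 1.69 over the 4 libraries), and the chromosomes of the other members 0.903 to 1.18 times. Its part in the Cbx7 count was not tested.

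Scores at these genes stood differently within the replicate 2 lists, a difference that was not tested. In even replicate 2, 2 of the 6 peaks at the genes scored above the list median of 265, and their scores ran from 110 to 480 with a median of 220. In odd replicate 2, 8 of 11 scored above the list median of 221, from 64.0 to 709 with a median of 383. In the replicate 1 lists, 15 of 19 even peaks and 16 of 16 odd peaks had exactly 3100. Median widths at the genes were 441 and 370 bp in the even libraries (399 and 404 bp over the lists) and 262 and 375 bp in the odd libraries (247 and 407 bp over the lists).

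**Figure D5:**
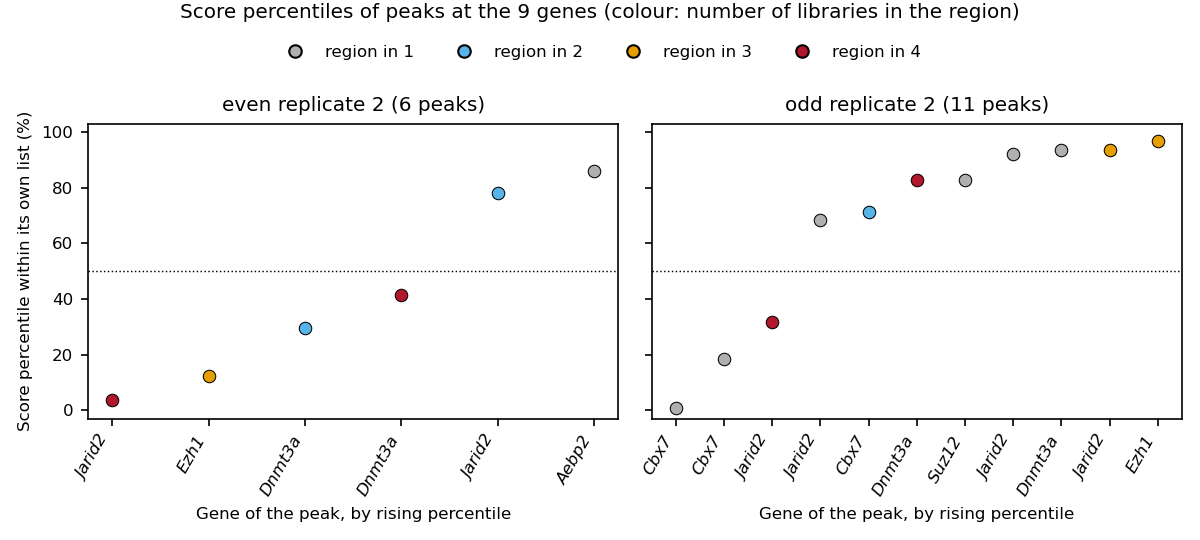
Score percentile, within its own list, of each peak at the 9 genes in even replicate 2 (left) and odd replicate 2 (right), ordered by percentile and coloured by the number of libraries in the region. The dotted line is the list's midpoint: 2 of 6 even peaks and 8 of 11 odd peaks lie above it, and the Jarid2 region of all 4 libraries lies below it in both.

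The probe sets did not differ in how many peaks they gave at these genes beyond the spread between replicates. The even libraries had 19 and 6 peaks there (mean 12.5 ± 9.19, SD, n = 2) and the odd libraries 16 and 11 (mean 13.5 ± 3.54, SD, n = 2), a difference of -1.0 (exact two-sided permutation p = 1.0). Peaks covered 1.16% and 0.337% of the windows in the even libraries, against 0.712% and 0.654% in the odd libraries, a difference of 0.0632 percentage points (exact two-sided permutation p = 1.0). With 2 libraries against 2 the smallest possible p is 0.333. Per 1000 peaks of the list, the genes had 0.467 and 0.226 in the even libraries and 0.570 and 0.315 in the odd libraries, and the ranges overlapped.

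Other genes of the same pathways were read from lists of textbook membership, and 44 of 45 genes outside the 9 were found in the gene table. A peak lay at 39 of the 44 (against 74.9% of protein-coding genes), an even-odd region at 8 (18.2%, against 16.0% of protein-coding genes) and a region of all 4 libraries at 0 (against 1.60%). Among other PRC2 genes these included Rbbp4, a histone-binding core subunit, and the accessory factors Phf19 and Lcor, 3 of 8. Among PRC1 genes they were Pcgf2, Pcgf5 and L3mbtl2, 3 of 21, and the last was on chromosome 15. Of the demethylases that remove the PRC2 mark it was Kdm6a and not Kdm6b. Each of these 8 regions was held by 2 libraries, 7 of them by even replicate 1 with an odd library. The whole series leaned the same way. Regions of even replicate 1 with odd replicate 1 or 2 alone numbered 1715 and 2287 there, and those of even replicate 2 numbered 322 and 581. The Lcor region (chromosome 19, 41532267 to 41532805) was of even replicate 2 and odd replicate 1, so 1 of the 8 genes was left without even replicate 1, where the share of protein-coding genes was 5.37%. It was 4 without odd replicate 1 (11.3% of protein-coding genes) and also 4 without odd replicate 2 (10.4%), so the share of all genes was lower in each case too. In Pcgf5, Kdm6a and Lcor every library had a peak, yet at different places for the most part, with 9, 6 and 9 regions of which 1 each was even-odd.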

How the data were processed

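Peak lists from 4 Tug1 pulldown libraries of cultured mouse podocytes were used, grouped by the sample titles into even and odd probe sets of 2 libraries each. The submitters' processing notes name Bowtie2 2.1.0 and the genome build mm10. Each deposited list was called against 1 input library, per the file names, and replicates were not pooled. The score of each peak is the authors' deposited value, and neither its scale nor the caller's version and threshold is given in the sources used here. Depth is unknown, so no counting interval was formed.

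Positions are 1-based on mm10. Gene spans, 21883 protein-coding genes and promoter sequences came from RefSeq tables of the same assembly (GRCm38.p6), and all 9 genes matched by symbol. Peaks sharing at least 1 bp were merged into regions. Counts of the 9 genes with a peak or a shared region are read against the share of all protein-coding genes that meet the same rule. Peak number and coverage were compared between probe sets by an exact permutation test over the 4 libraries. All 9 genes are named with their peaks, and other pathway genes only where they had an even-odd region, apart from an item that is not reported here. The 9 genes and the lists were chosen with earlier results of these data known. Alternatives were windows of 0, 2, 10 and 50 kb, peaks at or above the median score, centres in the window, a reciprocal overlap of 50%, merging over 500 bp, same-number pairs, a replicate block, and each library left out. The counting was tested on simulated data with planted regions. Scripts ran under Python 3.11.15 with numpy 2.4.6, pandas 2.3.3 and matplotlib 3.10.9.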

Additional observations from a re-analysis of the deposited data

How the results depend on the processing

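Across 52 recalculated values for the main counts and differences, 7 counts differed from the reported one by more than 1.5 times or were 0, and 5 differences turned direction. The other 40 were counts within 1.5 times, or differences that kept their sign only and could be far from the reported size. The number of the 9 genes with an even-odd region was 5 in the windows of 0, 2 and 10 kb (12.4%, 13.8% and 19.2% of protein-coding genes), 7 with 50 kb (38.6%), 4 with a reciprocal overlap of 50% (13.0%), 4 in same-number pairs (11.4%), and 3 to 5 when a library was left out (5.37% to 14.8%). The number with a region of all 4 libraries was 2 in most settings, 0 with peaks scoring at least the list median (1.00% of protein-coding genes) and 3 with 50 kb (4.17%). When 1 library was left out, 2 to 3 of the 9 genes had a region of all the others (1.84% to 4.71%). That rule asks for fewer libraries than the main one, so the count could not fall below 2 and is no check of it. The other pathway genes with an even-odd region numbered 5 under reciprocal overlap (13.0% of protein-coding genes) and 1 to 7 when a library was left out (5.37% to 14.8%), settings chosen after seeing the data. Differences between probe sets (even minus odd) changed direction with the library left out, and the cause was not tested. For peak number they ran from -7.5 to 5.5 (1.5 without odd replicate 1), and for coverage from -0.346 to 0.472 percentage points. Coverage also changed direction with 50 kb (-0.0701) and with peaks scoring at least the list median (-0.0410). The median filter treats the probe sets unequally, as it keeps 80.5% of the peaks of even replicate 1 and 99.9% of those of odd replicate 1. Peak number kept its direction with 50 kb (-6.5). With the replicate number as a block the differences in peak number and coverage were -1.0 and 0.0632. The exact sign-flip p was 1.0 for each, with 0.5 as the smallest possible. Over 16401 genes, replicate 1 minus 2 in peak number (log2) correlated at 0.00194 between the sets. That value concerns peak numbers only, and scores did go with the replicate number, most being 3100 or more in the replicate 1 lists alone. Of 117 values for single genes, which were not planned in advance, 105 stayed within 1.5 times and 12 did not. The 105 include counts of 0 that stayed 0, at Suz12 and Eed in each setting run and at Ezh2 and Mtf2 in all but the 50 kb window. Only the windows of 10 and 50 kb and merging over 500 bp could have raised a count of 0. The other settings remove peaks or tighten the rule, so a 0 that stayed 0 there was fixed in advance. The even-odd regions of Jarid2 and Dnmt3a stayed at 1 or more in each setting run. Depth is unknown, and its part in missing peaks was not tested.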
